A study of Mus musculus with 24 samples.

Results

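Islets of C57BLKs/J mice (BLKS) were compared with islets of C57BL6/J mice (BL6) after a high-fat diet that carried the drug pioglitazone. The comparison held the 4 arrays titled as the BLKS group on this diet and the 4 arrays titled as the BL6 group on it, 8 of the 24 arrays of the series, and every gene named on the array. All mice were male and entered at 8 weeks of age, and each array was labelled as a separate mouse. The diet drew 42% of its kcal from fat and held 140 mg of pioglitazone per kg of diet. The labels give 12 weeks on the diet and the design text gives 16 weeks. Islets came from collagenase-perfused pancreas and were treated with neutral protease, and total RNA of whole islets was labelled with Cy3. Both groups carried the diet and the drug, so the comparison sets strain against strain and does not measure the drug. The remaining 16 arrays, 4 mice of each strain on chow with 18% of kcal from fat and 4 of each on the high-fat diet without the drug, served to ask where the strain difference depended on diet.

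BL6 and BLKS are related inbred strains, and the study asked how their islets answer a high-fat diet. In diabetic mutants BLKS is known as the strain whose beta cells fail, and BL6 as the strain whose islets enlarge and compensate. Pioglitazone activates PPAR-gamma, a nuclear receptor that switches on genes of lipid uptake and storage and improves the response to insulin. Islets hold insulin-producing beta cells, glucagon-producing alpha cells and fewer other endocrine cells, together with macrophages and vessels, and isolates also carry acinar and ductal cells of the surrounding pancreas.

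Levels are given as log2 intensity relative to the array's own 75th percentile, so 0 is the level of that percentile, and differences are BLKS minus BL6 in log2 units with the standard error (SE) from limma. The 75th percentile itself lay between 217.9 and 403.3 intensity units on the 8 arrays, and 27355 to 30706 probes per array stood well above background. Where a probe was well above background on no array of a strain, that strain has only a bound, and the fold is given as at least the ratio to the dimmest levels that could be measured on those arrays. The limma p-value of such a gene uses the dim readings as they stand, so it does not bear on the size of the difference. The islet hormones bore out the tissue label: Ins1, Ins2, Gcg and Sst stood well above background on all 8 arrays. A strain could not be told apart from its slide here, because the BLKS arrays lay together on 1 slide and the BL6 arrays on 2 others. Only BL6 mice on pioglitazone and BLKS mice on chow shared slides, and differences taken within those slides are given where they bear on a result. Diet and drug differ in these values as well as strain, so they are not strain differences alone. BL6 mouse 3 stood apart: its mean over lymphocyte markers was 2.31 against -3.72 to -0.83 in the other 3 BL6 mice, and its inflammation mean was -0.72 against -2.15 to -2.09. In RNA of whole islets, fewer cells of a type and less RNA per cell cannot be told apart.

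Strain separated the 8 arrays on a broad front. Of 22968 genes tested, 10520 differed at a Benjamini-Hochberg adjusted p under 0.05 in limma (45.8%). BLKS was higher for 5280 genes (23%) and lower for 5240 (22.8%). Many of these differences were small, since 29.3% of the called genes differed by less than 0.5 log2 units and the median size was 0.71. At 4 log2 units or more stood 63 genes that were higher in BLKS and 19 that were lower. The 4 arrays of one strain lay wholly beyond the 4 of the other for 8881 genes (38.7%), with BLKS above in 20.3% and below in 18.4% of all genes. The first principal component, 53.7% of the variance, separated the strains. Taking slide as a block over all 24 arrays, 2351 genes were higher and 1968 lower (18.8%). This fit assumes the same strain difference on every diet, so its values are not estimates for the pioglitazone diet alone.

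The largest group differences were in genes that cells switch on within minutes of a stimulus. Of 27 immediate early genes listed, 25 were measured, and 23 of these were higher in BLKS and 0 lower, 92% against 23% of all genes. Their median difference was 3.44, against -0.04 over all genes. Atf3, a stress-induced transcription factor, headed the named genes. Its level was -5.86, -4.21, -1.68 and -3.74 in the 4 BL6 mice and 4.31, 3.86, 4.23 and 4.71 in the 4 BLKS mice. Every BLKS mouse stood above every BL6 mouse, and the probe was well above background on 3 of 4 BL6 arrays. The difference of 8.15 (SE 0.52, adjusted p = 1.4e-10) is 284-fold. Fosb, a subunit of the transcription factor AP-1, was -1.03, -1.34, -0.37 and -1.09 in BL6 and 4.9, 4.84, 4.49 and 4.86 in BLKS. The groups did not overlap, and the difference was 5.73 (SE 0.23, adjusted p = 1.6e-13), or 53-fold. Egr4, a zinc-finger transcription factor of the same response, reached well above background in 0 of the 4 BL6 mice. Its BL6 values lay between -6.62 and -5.79 and its BLKS values between -0.98 and -0.54, at least 17.4-fold higher in BLKS. Fos, the partner of Jun in AP-1, was -0.51, -0.71, 1.56 and -1.52 in BL6 and 4.51, 4.5, 4.27 and 4.57 in BLKS, with BL6 mouse 3 nearest to the BLKS mice (difference 4.76, SE 0.52).

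**Figure D1:**
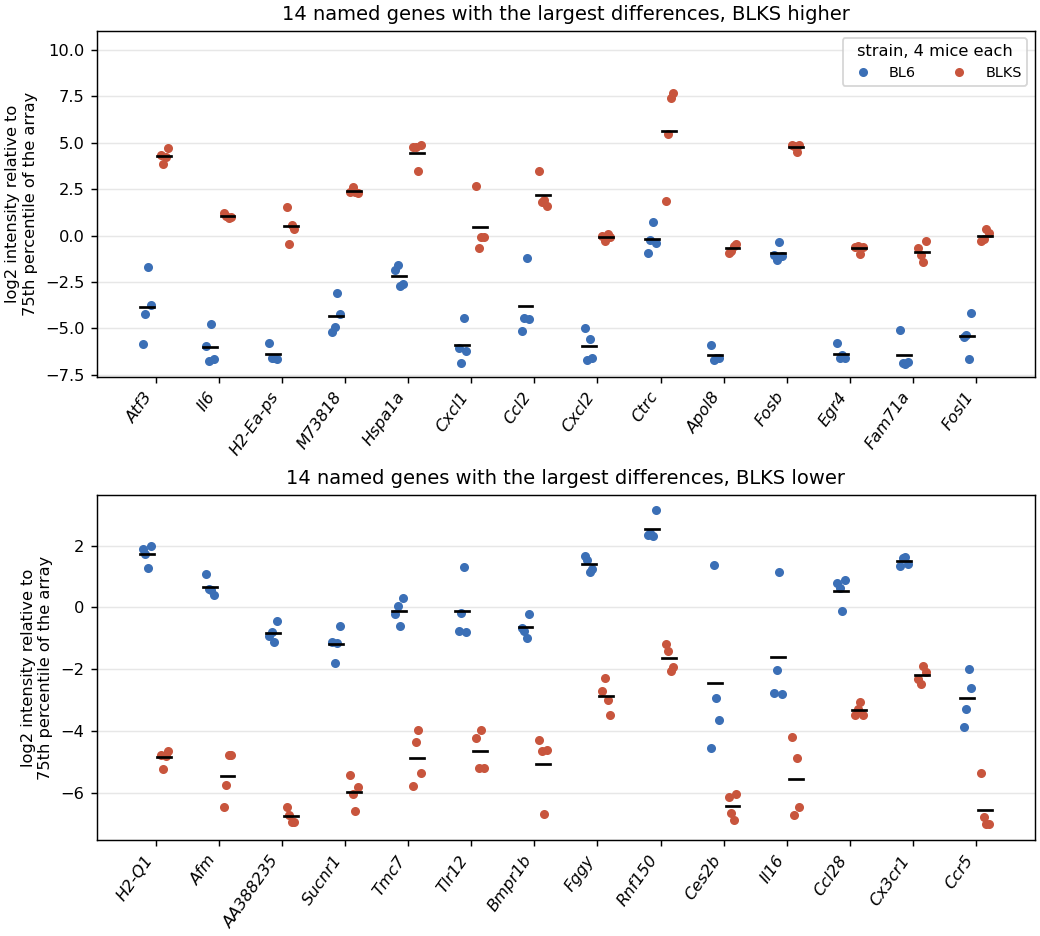
The 14 highest and 14 lowest named genes of the comparison, with log2 intensity relative to each array's 75th percentile on the vertical axis, 1 dot per mouse and bars at the group means of the 4 BL6 and 4 BLKS mice. Atf3 runs from -5.86 to -1.68 in BL6 and from 3.86 to 4.71 in BLKS, and in no named gene shown do the strains overlap.

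The AP-1 subunit Jund showed how tight the groups could be. It was 4.84, 4.71, 4.8 and 4.58 in BL6 and 7.76, 7.77, 7.82 and 7.73 in BLKS. The BLKS mice lay within 0.1 units of each other, and the difference was 3.04 (SE 0.10, adjusted p = 6.2e-15). Junb differed by 4.13, Jun by 3.63, the growth-response factor Egr1 by 4.43 and the activity-dependent factor Npas4 by 4.46, all with adjusted p under the threshold. The list's exceptions were Dusp2 (1.51) and Klf2 (-0.55), which did not pass. Of 20 measured Dusp genes, which encode phosphatases that mostly switch off MAP kinases, 9 were higher (45%) and 3 lower (15%), and under the slide block 9 and 0. Dusp8 was -0.74, -0.35, -0.97 and -0.26 in BL6 and 2.93, 2.94, 3.3 and 3.25 in BLKS, without overlap (difference 3.69, SE 0.17). All 3 Gadd45 genes, which answer DNA damage and other stress, were higher in BLKS, by 2.51 for Gadd45b, 2.26 for Gadd45a and 1.17 for Gadd45g. Of 14 measured Klf transcription factors 8 were higher (57.1%, against 23% of all genes), led by Klf4 (2.48) and Klf6 (2.45). The 2 lower were Klf3 (-0.61) and Klf8 (-0.44), 14.3% against 22.8% of all genes. The Dusp and Klf families share members with the immediate early list, Dusp2 and Klf2 among them. They were grouped by symbol after the values were seen, so they are not separate evidence. Under the slide block 21 immediate early genes were higher and 0 lower. Within the shared slides their median for BLKS on chow minus BL6 with pioglitazone was 3.39.

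Inflammatory genes formed a second block. Of 28 listed genes 26 were measured, and 22 were higher in BLKS (84.6%) and 0 lower, with a median difference of 2.34. The cytokine Il6 was -5.96, -6.77, -4.74 and -6.63 in BL6, well above background on none of these arrays, and 1.2, 1.06, 0.93 and 1.01 in BLKS. The BLKS mice stood together far above every BL6 mouse, at least 50-fold higher (adjusted p = 7.7e-12). Cxcl1 and Cxcl2 encode chemokines that draw neutrophils. Cxcl2 was -4.96, -6.71, -5.58 and -6.58 in BL6 and -0.04, -0.29, 0.09 and -0.09 in BLKS, at least 26.4-fold higher. Cxcl1 was -6.06, -6.85, -4.44 and -6.21 in BL6 and 2.65, -0.65, -0.08 and -0.07 in BLKS, where mouse 1 stood above the other three (difference 6.35, SE 0.96, well above background on 1 of 4 BL6 arrays). Ccl2, which draws monocytes, was -5.12, -4.44, -1.22 and -4.51 in BL6 and 3.45, 1.78, 1.93 and 1.58 in BLKS (difference 6.01, SE 0.75, well above background on 2 of 4 BL6 arrays). BL6 mouse 3 was the highest BL6 mouse for all 4 of Il6, Cxcl1, Ccl2 and Tnf, and still lay below every BLKS mouse.

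The inflammatory genes that were higher included parts of the NF-kB pathway itself, which turns on cytokine genes. Rela, its activating subunit p65, was 4.18, 4.29, 4.48 and 4.43 in BL6 and 5.85, 5.79, 5.92 and 5.97 in BLKS (difference 1.54, SE 0.08, adjusted p = 9.1e-12). Nfkbia, the inhibitor that NF-kB induces against itself, was 3.77, 3.62, 4.35 and 3.9 in BL6 and 6.04, 5.76, 6.07 and 6.15 in BLKS (difference 2.10, SE 0.24). Neither gene overlapped between strains. The feedback inhibitors Tnfaip3 (2.40) and Socs3 (2.77), the interleukin-1 antagonist Il1rn (2.28), the prostaglandin enzyme Ptgs2 (4.21), and Tnf (3.81) were also higher. Members that did not pass were the adhesion molecule Vcam1 (2.25, adjusted p = 0.055), Relb (-0.07), Nos2 (-0.21) and Ccl5 (-0.56). In the fit with the slide block 16 inflammatory genes were higher and 0 lower. Within the shared slides their median for BLKS on chow minus BL6 with pioglitazone was 2.14. Macrophage markers, listed apart from these genes, went the other way, 16 of 22 lower in BLKS.

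Because NF-kB subunits and targets stood higher together, the promoters of the higher members were searched on both strands for the NF-kB site, in windows from 250 bases before to 50 after the start site. RefSeq (GRCm38.p6) gave a promoter for 16 of the 22 higher members, and 6 of these held a match (37.5%), against 4.35% of all 27025 promoters. The matches were in Cxcl1, Cxcl2, Il6, Nfkb2, Nfkbia and Tnfaip3. The 150 bases before the start site of 4 of them are shown because these genes carry the largest differences or the feedback arm, with the match in capitals. A match describes the letters and is no measured binding. In this and the other promoter searches, list members that were not higher were not counted apart. The shares therefore describe the lists and not the strain difference.
Il6, chr5:30012964-30013113, plus strand: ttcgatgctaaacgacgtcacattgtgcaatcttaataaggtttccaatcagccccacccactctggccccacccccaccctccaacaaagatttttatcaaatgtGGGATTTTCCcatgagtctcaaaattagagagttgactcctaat
Cxcl1, chr5:90891095-90891244, plus strand: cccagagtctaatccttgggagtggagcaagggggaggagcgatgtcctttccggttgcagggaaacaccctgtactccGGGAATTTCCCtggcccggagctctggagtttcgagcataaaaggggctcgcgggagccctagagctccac
Cxcl2, chr5:90903749-90903898, plus strand: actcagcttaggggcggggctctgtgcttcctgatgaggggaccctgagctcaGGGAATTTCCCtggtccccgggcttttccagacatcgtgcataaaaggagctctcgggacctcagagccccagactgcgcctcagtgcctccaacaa
Nfkbia, chr12:55492648-55492797, minus strand: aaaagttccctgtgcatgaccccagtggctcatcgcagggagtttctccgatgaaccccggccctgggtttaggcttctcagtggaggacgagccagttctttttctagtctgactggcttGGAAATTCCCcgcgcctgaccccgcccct
The match begins 44 bases before the start site in Il6, 71 in Cxcl1, 97 in Cxcl2 and 29 in Nfkbia. Cxcl1 and Cxcl2 share the same run of capitals, which matches on both strands. The promoters of 19 of the 23 higher immediate early genes were searched as well. The AP-1 site TGANTCA was in 0 of them (7.93% of all promoters), the cyclic AMP response element TGACGTCA in 2 (10.5%, against 1.88%) and the CArG box in 1 (5.3%, against 1.57%).

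Clock genes also stood higher. Of 20 listed genes 19 were measured, 14 were higher in BLKS (73.7%) and 0 lower, and the median difference was 1.11. Nr1d1, which encodes the clock repressor REV-ERB-alpha, was -0.49, -0.37, -1.3 and -2.43 in BL6 and 3.98, 4.13, 4.37 and 4.2 in BLKS. The BL6 mice were spread and the BLKS mice were not, with no overlap (difference 5.32, SE 0.32, adjusted p = 4.3e-11). The repressor Bhlhe40 differed by 3.35 (SE 0.19), Nfil3 by 2.92, its antagonist Dbp by 2.30 and the core repressor Cry1 by 1.92. Per1, a core clock repressor, was 3.31, 3.2, 2.85 and 3.43 in BL6 and 4.63, 4.66, 4.76 and 4.8 in BLKS (difference 1.51, SE 0.14). The activating arm did not pass: Arntl, which encodes BMAL1, differed by 0.27 (adjusted p = 0.092), its partner Clock by -0.25 (adjusted p = 0.16) and the Clock paralogue Npas2 by 1.11. The E-box CACGTG, which that pair binds, lay in the promoters of 4 of the 12 higher members that had a RefSeq promoter (33.3%), namely Bhlhe41, Cry1, Per1 and Tef, against 7.24% of all promoters. The slide block left 12 clock genes higher and 0 lower.

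Heat-shock proteins, the chaperones that refold damaged proteins, were higher for 28 of 38 measured genes (73.7%) and lower for 2, Hspb11 (-0.60) and Hspa12b (-1.88). Hspa1a, the inducible HSP70, was -1.87, -1.57, -2.73 and -2.59 in BL6 and 4.74, 4.74, 3.48 and 4.87 in BLKS. Mouse 3 was the lowest of the BLKS mice, yet the strains lay far apart (difference 6.65, SE 0.63, adjusted p = 3.7e-08). The small heat-shock proteins Hspb1 and Hspb8 differed by 4.04 and 3.88, the HSP40 co-chaperone Dnajb1 by 2.94 and the mitochondrial chaperone Hspd1 by 1.16. Hspa8, the constitutive relative of Hspa1a, differed by only 0.30. The heat-shock element, searched on both strands as alternating GAA and TTC triplets, 3 in all and 2 bases apart, was found in the promoters of 2 of 24 higher members (8.3%), Hspe1 and Hsph1, against 0.529% of all promoters. Under the slide block 20 were higher and 2 lower.

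The unfolded protein response, which relieves protein overload of the endoplasmic reticulum, was higher for 22 of 39 measured genes (56.4%) and lower for 1, with a median difference of 0.48. Ppp1r15a, the phosphatase subunit that restarts translation after stress, was 3.12, 3.19, 2.91 and 2.83 in BL6 and 6.57, 6.34, 6.54 and 6.53 in BLKS. No mouse of one strain came near the other, and the difference was 3.48 (SE 0.11, adjusted p = 3.6e-15). The genes of the PERK branch that act with it were higher too: Trib3 by 2.38, the stress-death factor Ddit3 (CHOP) by 2.18 and Atf4 by 1.19. The main chaperone Hspa5 differed by 1.12, and the sensors and factors Atf6 and Xbp1 by 0.49 and 0.57. The sensor Ern1 (-0.17) and the beta-cell stress regulator Wfs1 (-0.07) did not pass, and the inhibitor Dnajc3 was lower (-0.93).

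Enzymes that handle oxidants and NADPH were mixed, 12 higher and 9 lower of 37 (32.4% and 24.3%). Hmox1, the haem-degrading enzyme induced by oxidative stress, was 0.04, -0.05, 0.29 and 0.44 in BL6 and 3.33, 3.46, 3.49 and 3.98 in BLKS (difference 3.38, SE 0.22). The metallothioneins Mt2 and Mt1 differed by 2.20 and 1.07, and the peroxidase Gpx1 by 0.95. Catalase (Cat) was lower, by -0.78. Nnt encodes the mitochondrial enzyme that makes NADPH from NADH, and the BL6/J substrain is known to carry a deletion within this gene. Its level was 2.34, 2.4, 2.05 and 2.7 in BL6 and 3.6, 3.81, 3.69 and 3.65 in BLKS (difference 1.32, SE 0.12, adjusted p = 1.4e-08), and the other 2 probes gave 0.26 and 2.8. The probe was well above background in every mouse of both strains. It was not placed against the deletion, so it does not test the genotype.
Nnt probe, mm9 chr13:120124335-120124394, minus strand: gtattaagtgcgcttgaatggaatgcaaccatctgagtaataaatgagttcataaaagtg

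Metabolic lists differed in direction. Cholesterol synthesis was higher for 16 of 24 measured genes (66.7%) and lower for 2, with a median difference of 0.54. Fdft1, the enzyme that commits the pathway to sterols, was 2.26, 2.16, 1.85 and 2.08 in BL6 and 3.41, 3.61, 3.75 and 3.65 in BLKS, without overlap (difference 1.52, SE 0.12). Fdps, which makes farnesyl diphosphate, differed by 1.21 and the regulator Srebf2 by 0.54. Mvk (-0.37) and Tm7sf2 (-0.77) were lower. The slide block gave 7 higher and 1 lower. Oxidative phosphorylation, the respiratory chain, had 11 of 39 genes lower (28.2%) and 0 higher, with a median of only -0.09, and 1 lower and 0 higher with slide as a block. The subunit gene Ndufa4 differed by -0.92 (SE 0.14). Fatty acid synthesis was mixed, 5 higher and 6 lower of 20. Insulin and IGF signalling had 6 of 25 genes higher (24%, near the 23% of all genes) and a median of 0.05. Among these 6 were the insulin receptor substrate Irs2 (1.97) and the transcription factor Foxo3 (2.12), and 2 genes were lower.

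Known targets of PPAR receptors, the list nearest to the drug, had no common direction. Of 40 measured genes 9 were higher (22.5%) and 8 lower (20%), near the shares of all genes, and the median was -0.10. The list's mean ran from 0.57 to 0.75 over the BL6 mice and from 0.63 to 0.72 over the BLKS mice. Pparg, the drug's receptor, was 1.68, 1.93, 1.29 and 1.82 in BL6 and 2.53, 2.65, 2.72 and 2.65 in BLKS (difference 0.96, SE 0.15, adjusted p = 2.9e-05), and 0.62 (adjusted p = 0.12) with slide as a block. The BLKS mice were above every BL6 mouse. Rbp7, a retinoid-binding protein of fat and vessels, went the other way, at 4.5, 3.93, 3.58 and 4.27 in BL6 and 1.56, 1.39, 1.58 and 1.45 in BLKS (difference -2.57, SE 0.19, adjusted p = 9.8e-10). This strain difference was present without the drug, at -2.32 on chow and -2.65 on the high-fat diet. BL6 means were 2.54 ± 0.27 on chow, 2.67 ± 0.28 on the high-fat diet and 4.07 ± 0.40 with pioglitazone (SD, n = 4 each). BLKS means were 0.22 ± 0.32, 0.01 ± 0.17 and 1.5 ± 0.09 in the same order, so each strain had its highest mean with the drug.

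Cd36, a fatty acid transporter, and Fabp4, a fatty acid carrier, are textbook targets of PPAR-gamma in fat. Cd36 was -0.27, -0.18, 0.31 and 0.15 in BL6 and -0.62, -1.18, -1.24 and -0.53 in BLKS. BLKS was below BL6 in all mice (difference -0.90, SE 0.31, adjusted p = 0.023). The call was lost without BL6 mouse 3 (adjusted p = 0.061), BL6 mouse 4 (0.052), BLKS mouse 2 (0.066) or BLKS mouse 3 (0.071). The slide block, which assumes the same difference on every diet, did not call Cd36 (adjusted p = 0.40). On chow the Cd36 difference was 0.86 (adjusted p = 0.032) and on the high-fat diet 0.70 (adjusted p = 0.068). The change of the Cd36 difference from chow to pioglitazone was -1.75 with adjusted p = 0.30, so it did not pass. Fabp4 was 3.96, 3.39, 3.75 and 4.16 in BL6 and 3.43, 3.08, 3.43 and 3.38 in BLKS, which overlap (difference -0.48, adjusted p = 0.091), against 0.79 (adjusted p = 0.0087) on chow. For Fabp4 the change from chow to pioglitazone was -1.27 and did not pass in limma either (adjusted p = 0.3).

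Genes known from brown fat were also among the PPAR targets with a strain difference. Cidea, a protein of lipid droplets, was -0.63, -0.92, -1.11 and -0.8 in BL6 and 2.2, 2.27, 1.81 and 1.61 in BLKS (difference 2.84, SE 0.15, adjusted p = 6e-12). Ucp1, the uncoupling protein of brown fat, was -5.88, -5.94, -6.69 and -6.16 in BL6, well above background on none, and -0.53, -3.52, -3.24 and -2.87 in BLKS, at least 4.81-fold higher. Both genes were also called higher on chow, Cidea by 3.01. Of 8 fat-cell markers listed only Fabp4 and Retn passed the filter on dim probes, and neither passed the test. Among the oxidation genes, the carnitine transferase Cpt2 (-1.13) and the kinase Pdk4 (-1.87), which spares glucose, were lower, and the fatty acid carrier Fabp3 (1.99) was higher.

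**Figure D2:**
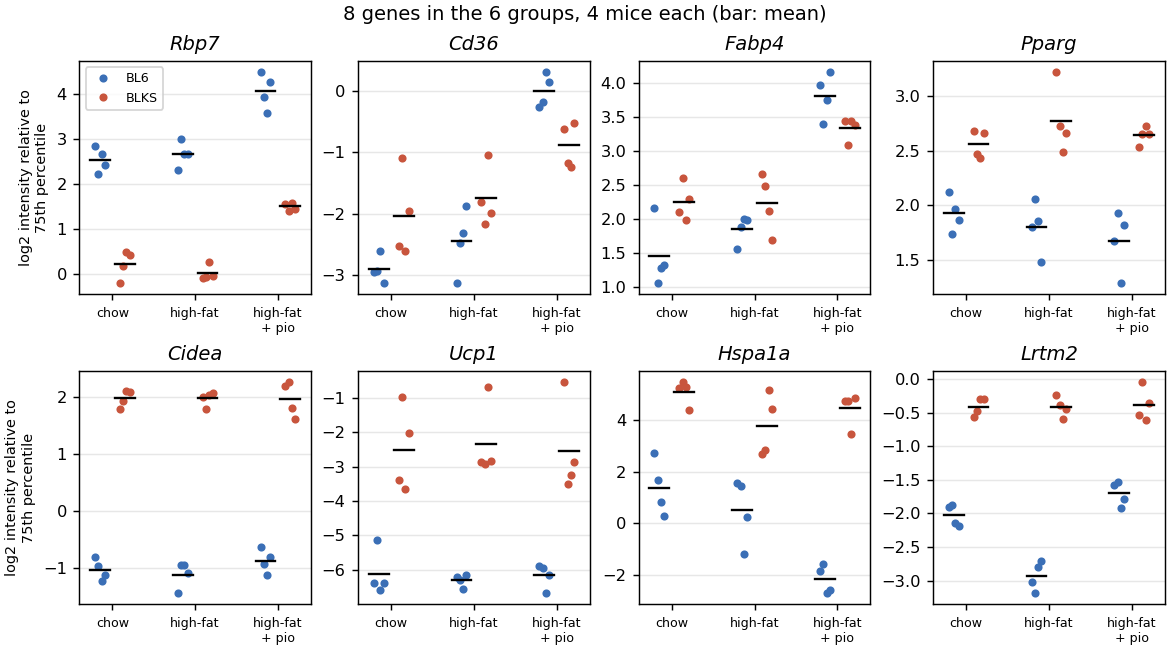
Log2 intensity relative to each array's 75th percentile for Rbp7, Cd36, Fabp4, Pparg, Cidea, Ucp1, Hspa1a and Lrtm2 in all 6 groups, 1 dot per mouse and bars at the means of 4. Rbp7 has its highest mean with pioglitazone in both strains, and the Cd36 means run -2.9, -2.45 and 0 in BL6 and -2.04, -1.75 and -0.89 in BLKS from chow to high-fat diet to pioglitazone.

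The genes of insulin, glucagon, somatostatin and pancreatic polypeptide did not pass the test. Ins1 was 10.46, 9.86, 9.71 and 10.05 in BL6 and 9.96, 9.79, 9.94 and 9.45 in BLKS, and the groups overlapped (difference -0.24, SE 0.16, adjusted p = 0.24). Ins2 differed by -0.14 (SE 0.15, adjusted p = 0.46), glucagon (Gcg) by -0.21 (adjusted p = 0.21), somatostatin (Sst) by 0.08 (adjusted p = 0.64) and Ppy by 0.60 (SE 0.46, adjusted p = 0.31). No spot on any array was marked as saturated.

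Beta-cell identity genes leaned lower, 12 lower and 6 higher of 34 (35.3% and 17.6%), with a median of -0.19. Rfx6, a transcription factor of endocrine cells, was 3.35, 3.25, 3.01 and 3.69 in BL6 and 1.93, 1.75, 1.4 and 1.81 in BLKS (difference -1.60, SE 0.13, adjusted p = 6.4e-09). Foxa2 was 5.65, 5.11, 4.86 and 5.38 in BL6 and 3.98, 4.03, 3.74 and 3.97 in BLKS (difference -1.32, SE 0.14). Neither overlapped. The fatty acid receptor Ffar1 differed by -1.91 and the GLP-1 receptor Glp1r by -1.30, although a second Glp1r probe gave 0.01. Higher members were the transcription factors Pax6 (0.76) and Neurod1 (0.60) and Kcnj11 (0.66), the pore of the KATP channel. The beta-cell factors Pdx1 (-0.09, adjusted p = 0.61) and Mafa (-0.05, adjusted p = 0.76) and the glucose transporter Slc2a2 (-0.11, adjusted p = 0.52) did not pass. With slide as a block 7 beta-cell genes were lower and 1 higher, and without BL6 mouse 3 16 were lower and 4 higher. Vgf, a granule protein whose peptides act on secretion, was 2.41, 1.83, 1.65 and 2.4 in BL6 and 5.84, 5.54, 6.09 and 5.75 in BLKS (difference 3.73, SE 0.21).

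Alpha-cell markers were lower for 6 of 9 measured genes (66.7%) and higher for 0, with a median of -0.96. Irx2, a transcription factor of alpha cells, was 1.31, 1.5, 0.85 and 1.31 in BL6 and -0.73, -0.1, -0.81 and -0.49 in BLKS, without overlap (difference -1.78). The related factor Irx1 differed by -1.70 and the amino acid transporter Slc38a5 by -1.14. Glucagon itself was among the 3 that did not pass. With slide as a block 3 were lower and 0 higher. The list's median was -0.81 on chow and -0.53 on the high-fat diet. On the high-fat diet 4 members were lower and 1 higher, and Irx1 (-0.53, adjusted p = 0.19) and Slc38a5 (-0.41, adjusted p = 0.29) did not pass. Ghrl, the hormone of epsilon cells, was 3.11, 1.3, 1.29 and 1.06 in BL6 and -0.97, -0.81, 0.32 and -0.92 in BLKS (difference -2.28, SE 0.79, adjusted p = 0.023), and lost the call without BL6 mouse 1 (adjusted p = 0.088), BLKS mouse 1 (0.052) or BLKS mouse 4 (0.053) and with slide as a block (0.45).

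Genes that move calcium in and out of the endoplasmic reticulum were lower for 7 of 14 measured genes (50%) and higher for 0, with a median of -0.28. Under the slide block 4 were lower and 0 higher and the median was -0.01. Itpr2, an IP3 receptor that releases calcium, was 3.47, 3.41, 3.15 and 3.09 in BL6 and 1.63, 1.5, 1.6 and 1.67 in BLKS, without overlap (difference -1.68, SE 0.10, adjusted p = 3e-11). The other IP3 receptors Itpr3 and Itpr1 differed by -0.86 and -0.85, and the calcium pump Atp2a3 by -0.60. Atp2a2, the main pump (SERCA2), was 4.94, 4.66, 4.28 and 4.42 in BL6 and 4.71, 4.85, 4.93 and 4.92 in BLKS, which overlap (difference 0.28, adjusted p = 0.086). It passed with the mean of its probes (0.46, adjusted p = 0.0042), in the authors' value table (0.39, adjusted p = 0.043) and without BL6 mouse 1 (0.40, adjusted p = 0.012). Granule exocytosis (5 higher, 4 lower of 24) and glucose sensing and ion channels (8 and 8 of 27) had no common direction. Under the slide block the counts of higher and lower genes also shrank by more than 1.5 times in both directions for these, for PPAR targets (5 and 4), for NADPH and oxidant enzymes (6 and 3), for antigen presentation (4 and 2) and for fatty acid synthesis (2 and 0). The counts over all genes shrank as well, from 5280 to 2351 higher and from 5240 to 1968 lower.

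Ductal markers were higher for 9 of 14 genes (64.3%) and lower for 0, with a median of 1.26. Krt8, a keratin of simple epithelia, was 4.69, 4.73, 4.15 and 4.61 in BL6 and 7.78, 7.91, 7.98 and 7.8 in BLKS (difference 3.32, SE 0.14, adjusted p = 2.7e-13). Krt19, the keratin most used to mark ducts, was -2.38, -1.54, -3.87 and -2.92 in BL6 and 0.02, 0.78, 1.02 and 0.81 in BLKS (difference 3.33, SE 0.67). Both sets of mice were apart. Spp1 differed by 3.08, the ductal transcription factor Sox9 by 2.09 and Epcam by 1.21. The chloride channel Cftr (-0.23), Krt7 (-0.11), Onecut1 (-0.99) and Tff2 (-0.24), which did not pass, are ductal too. With slide as a block 6 were higher and 0 lower. Of the claudins, which seal epithelial junctions, 6 of 14 were higher (42.9%) and 0 lower. Acinar markers, which report enzyme-secreting tissue around the islets, varied between mice. Their mean ran from 4.25 to 5.47 over the BL6 mice, from 5.07 to 6.95 over 3 BLKS mice, and was 2.06 in BLKS mouse 1. Only Ctrc, a digestive protease, passed of 26 (difference 5.82, SE 1.56, adjusted p = 0.0044), and it did not with slide as a block (adjusted p = 0.38).

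Macrophage markers were the list with the largest share lower in BLKS, 16 of 22 measured genes (72.7%), with 1 higher and a median of -1.04. Fcgr1, a receptor for antibodies, was -2.49, -2.64, -2.43 and -1.79 in BL6 and -4.82, -4.88, -6.72 and -6.01 in BLKS, where no array had it well above background. BL6 was at least 4.7-fold higher. The chemokine receptor Cx3cr1, which is not in the list or its counts, was 1.35, 1.59, 1.62 and 1.41 in BL6. In BLKS it was -2.31, -2.47, -1.89 and -2.1 (difference -3.68, SE 0.24, adjusted p = 1.4e-10). Broader markers of the list differed less: Emr1, which encodes F4/80, by -0.90, the complement gene C1qa by -0.76, the growth factor receptor Csf1r by -0.96, and Cd68 by -0.01, which did not pass. Cd14, the co-receptor for bacterial lipopolysaccharide, was the exception, at -1.48, -1.35, -0.87 and -1.27 in BL6 and 1.42, 1.67, 1.89 and 1.75 in BLKS (difference 2.93, SE 0.17). The list's mean ran from 0.44 to 2.18 in BL6, with mouse 3 highest, and from -0.33 to 0.81 in BLKS, so it overlapped. Without BL6 mouse 3 the count was 12 lower and 1 higher, and with slide as a block 1 and 1. Within the shared slides the median for BLKS on chow minus BL6 with pioglitazone was -1.13.

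**Figure D3:**
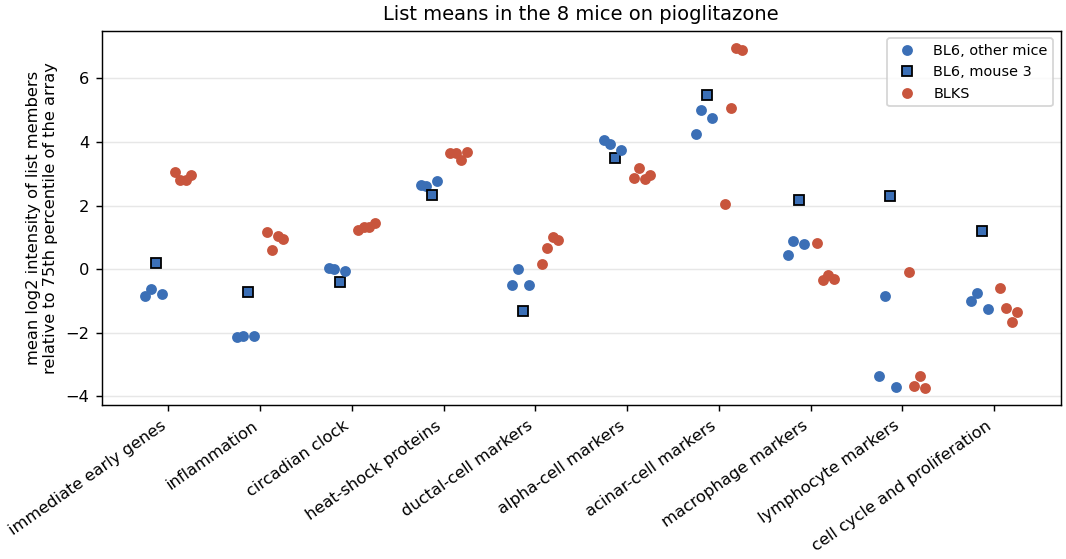
Mean log2 level of each list's measured members on every array of the comparison, 1 dot per mouse, with BL6 mouse 3 drawn as a square. Immediate early genes run from -0.84 to 0.19 in BL6 and from 2.81 to 3.05 in BLKS, whereas the macrophage and lymphocyte means overlap between strains.

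Lymphocyte markers differed more between mice than between strains. Only Cd3e, a subunit of the T-cell receptor, passed of 20 (difference -0.61, SE 0.12), and with slide as a block it was -0.10 (adjusted p = 0.81). The B-cell marker Ms4a1 was -5.79, 1.19, 4.32 and -5.32 in BL6 and 1.3, -6.59, -6.78 and -6.84 in BLKS, high in 3 mice of the 8 (adjusted p = 0.35). H2-Aa, a class II antigen-presenting gene, was 2.35, 2.79, 4.96 and 2.74 in BL6 and 1.7, 0.14, 0.81 and 0.55 in BLKS (difference -2.41, SE 0.55, adjusted p = 0.0012). Its difference was -1.62 on chow and -1.87 on the high-fat diet. The class II genes H2-Ab1 (-0.54, adjusted p = 0.41) and H2-Eb1 (-0.38, adjusted p = 0.52) did not pass with pioglitazone, nor did Cd74 (-0.67, adjusted p = 0.35). The highest H2-Aa value in each strain was in the mouse with the highest lymphocyte mean. The part of lymphocytes in the H2-Aa difference was not tested.

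The MHC region on chromosome 17 held some of the sharpest on-off differences. BL6 is known to carry the b haplotype of H2 and BLKS the d haplotype, and in the b haplotype the class II gene Ea is silent because of a deletion. H2-Ea-ps, the array's name for that gene, was -5.77, -6.58, -6.58 and -6.63 in BL6, well above background on none, and 1.51, -0.46, 0.55 and 0.37 in BLKS. BLKS was at least 39.4-fold higher (adjusted p = 1e-10). H2-Q1, a class I gene, was 1.88, 1.74, 1.29 and 1.98 in BL6 and -4.77, -5.24, -4.8 and -4.64 in BLKS, well above background on none of the latter, so BL6 was at least 76.8-fold higher. AA388235, a transcript about which the files say no more, was -0.93, -0.79, -1.11 and -0.44 in BL6 and -6.45, -6.73, -6.96 and -6.94 in BLKS, at least 13.5-fold higher in BL6. Across the 36 measured genes of antigen presentation 8 were higher (22.2%) and 7 lower (19.4%). H2-K1 differed by -0.93 with the probe used and by 0.25 with another probe. The probes of the genes with on-off differences are printed because a base that differs between strains under a probe would alter its signal; no genome of either strain was compared with them.
H2-Ea-ps probe, mm9 chr17:34481469-34481528, minus strand: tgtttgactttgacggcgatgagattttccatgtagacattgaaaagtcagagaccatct
H2-Q1 probe, mm9 chr17:35461859-35461918, plus strand: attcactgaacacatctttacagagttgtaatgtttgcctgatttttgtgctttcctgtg
AA388235 probe, mm9 chr17:34122175-34122234, plus strand: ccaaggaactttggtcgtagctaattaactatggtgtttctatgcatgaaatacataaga
Apol8 probe, mm9 chr15:77578354-77578413, minus strand: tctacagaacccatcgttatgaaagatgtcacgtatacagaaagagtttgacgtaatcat
Apol8, an apolipoprotein L family gene, is the fourth. It was -5.92, -6.72, -6.62 and -6.6 in BL6 and -0.95, -0.81, -0.55 and -0.45 in BLKS, at least 17.3-fold higher in BLKS (adjusted p = 6.9e-16).

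Interferon-response genes were higher for 17 of 39 measured genes (43.6%) and lower for 5 (12.8%), and under the slide block for 11 and 1. Oasl1, an antiviral regulator, was -0.53, 0.33, -0.01 and -0.1 in BL6 and 3.05, 2.72, 2.78 and 2.96 in BLKS (difference 2.95, SE 0.32). Cxcl10, a chemokine for T cells, was -1.57, -2.01, 1.38 and -3.89 in BL6 and 2.91, 2.08, 2.79 and 2.86 in BLKS, with BL6 mouse 3 nearest (difference 4.18, SE 1.08, adjusted p = 0.0033). Ifit1 differed by 2.74, the GTPases Gbp3 and Mx2 by 2.68 and 2.17, and the ubiquitin-like Isg15 by 1.49. The RNA sensor Ifih1 was lower (-1.12).

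Of the 7 cyclin-dependent kinase inhibitors, which hold the cell cycle, 3 were higher and 4 lower, but under the slide block 3 were higher and 0 lower, and the list's median moved from -0.52 to 0.2. Cdkn1a (p21), induced by p53 and by stress, was 0.91, 0.29, 0.34 and 1.22 in BL6 and 3.12, 3.15, 3.29 and 3.13 in BLKS (difference 2.48, SE 0.17, adjusted p = 3.5e-10). Cdkn2a (p16 and Arf) was -1.88, -2.24, -1.33 and -2.06 in BL6 and -3.64, -2.93, -3.3 and -3.37 in BLKS (difference -1.43, SE 0.24), against 0.04 on chow and -1.07 on the high-fat diet. The change of the Cdkn2a difference from chow to pioglitazone was -1.47 and did not pass in limma (adjusted p = 0.29). The slide block, which assumes the same difference on every diet, gave -0.32 for Cdkn2a (adjusted p = 0.68). Proliferation genes were mostly not called, with 2 higher and 6 lower of 37. Mki67, the proliferation marker, was -0.79, -0.29, 2.97 and -1.17 in BL6 and -0.33, -1.48, -1.97 and -1.63 in BLKS, high in BL6 mouse 3 alone (adjusted p = 0.14). Without that mouse the list had 6 higher and 5 lower.

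Apoptosis genes were split, 13 higher and 9 lower of 32 (40.6% and 28.1%), and 9 and 2 under the slide block. Casp9, the caspase that starts the mitochondrial death pathway, was 1.87, 1.78, 1.84 and 2.05 in BL6 and -0.77, -0.67, -0.99 and -0.97 in BLKS, far apart with little spread (difference -2.74, SE 0.13, adjusted p = 2.4e-12). The death receptor Tnfrsf10b (1.97) and the NF-kB-induced inhibitor of apoptosis Birc3 (2.70) were higher, and the death promoter Bik (-1.25) was lower.

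Among the remaining lowest genes, Afm, a vitamin E-binding plasma protein, was 1.08, 0.58, 0.56 and 0.39 in BL6 and -6.48, -5.75, -4.77 and -4.79 in BLKS. It was well above background on no BLKS array and at least 37.4-fold higher in BL6 (adjusted p = 1.5e-09). Sucnr1, the succinate receptor, was -1.13, -1.81, -1.14 and -0.6 in BL6 and -5.43, -6.03, -6.58 and -5.83 in BLKS, at least 10.6-fold higher in BL6. Fggy, a carbohydrate kinase, was still well above background in all 4 BLKS mice, at -3.48 to -2.28 against 1.14 to 1.66 in BL6 (difference -4.26, SE 0.18, adjusted p = 3.9e-13). Bmpr1b, a BMP receptor, was at least 14.7-fold higher in BL6, and Ccl28, a mucosal chemokine, was lower in BLKS by -3.87. Each of these genes separated the 4 mice of one strain from the 4 of the other. The largest drop of any gene belonged to 5830417I10Rik, a clone name outside the naming rule, at 1.61, 1.61, 1.41 and 1.56 in BL6 and -6.62, -6.82, -7.06 and -7.05 in BLKS (at least 69.5-fold).

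Counting presence rather than size, 189 of 34779 gene names were well above background on all 4 arrays of BLKS and none of BL6, and 137 the other way. For 80 and 34 of them the same held on all 3 diets. The BLKS set held Il6, Cxcl2, Egr4, the endothelial peptide Edn1, the homeobox gene Hoxa5 and the collagenase Mmp13. The BL6 set held Fcgr1, the mannose receptor Mrc1 and Bmpr1b. Called genes lay all over the genome. In 480 windows of 5 Mb with at least 10 genes the share called ran from 15.4% to 88.9% with a median of 45.5%, and the highest was the window at 20 to 25 Mb of chromosome 12 (mm9), with 32 of 36 genes. By chromosome the share was highest on 17, which carries the MHC (52%, 612 of 1176), and lowest on X (41.7%, 362 of 868).

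Most genes called with pioglitazone were also called on the other diets. The 3 comparisons share no arrays, but they do share slides. All BLKS arrays with pioglitazone and on the high-fat diet lay on the same slide. The BL6 arrays on chow and on the high-fat diet lay together on another. BLKS arrays on chow shared slides with BL6 arrays with pioglitazone. The part of slide in the overlaps and correlations below was not tested. On chow 9545 genes were called (41.6%) and on the high-fat diet 11466 (49.9%). Of the genes called with pioglitazone, 7690 were called in the same direction on chow (73.1% of the pioglitazone list and 80.6% of the chow list) and 8620 on the high-fat diet (81.9% and 75.2%). Opposite directions occurred for 13 and 16 genes. Across genes the Pearson correlation of the differences was 0.78 with chow and 0.85 with the high-fat diet, as a description, since genes are not independent. Immediate early genes had medians of 3.44, 3.37 and 3.27 with pioglitazone, on chow and on the high-fat diet, inflammatory genes 2.34, 2.52 and 2.50, and clock genes 1.11, 0.86 and 1.01. Macrophage markers had -1.04, -0.23 and -0.76, with 16, 6 and 12 genes lower.

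**Figure D4:**
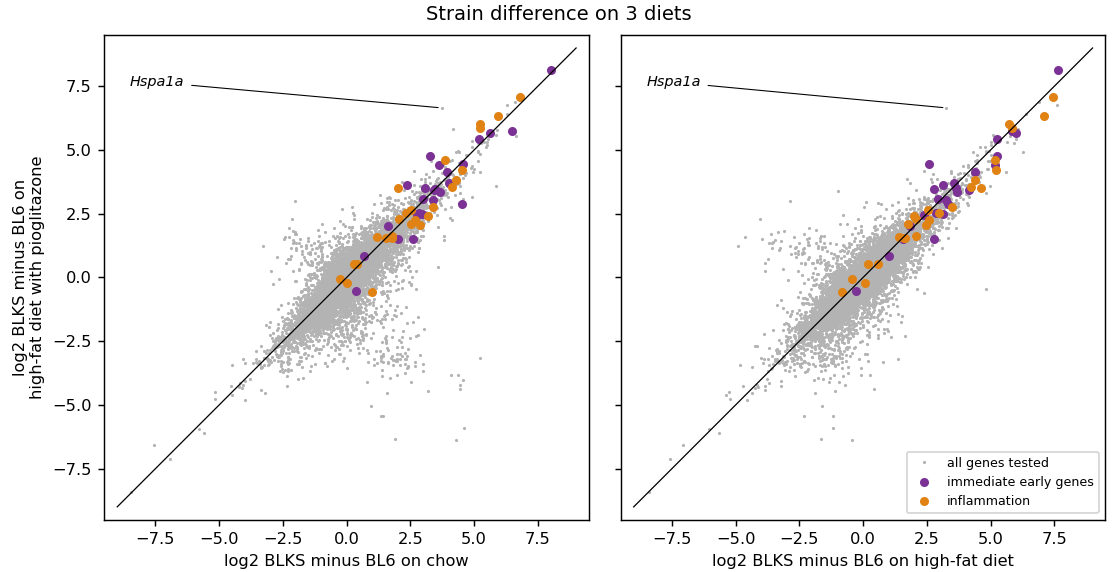
BLKS minus BL6 log2 difference of each gene with pioglitazone on the vertical axis against the difference on chow (left) and on the high-fat diet (right), with the line of equality, immediate early genes in purple and inflammation genes in orange. Most genes lie along the line, and Hspa1a, at 6.65 with pioglitazone, lies above it at 3.73 on chow and 3.27 on the high-fat diet.

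The test of whether the strain difference itself changed with diet called 0 genes for pioglitazone against chow (2199 at an unadjusted p under 0.05) and 2 for pioglitazone against the high-fat diet (0.00871%, with 1713 at an unadjusted p under 0.05). Lrtm2, a leucine-rich repeat membrane protein, was -1.58, -1.53, -1.92 and -1.79 in BL6 and -0.54, -0.04, -0.61 and -0.35 in BLKS with pioglitazone, a difference of 1.32. On the high-fat diet alone its difference was 2.51, with BL6 lower, at -3.19 to -2.71, and the change was -1.19 (SE 0.19, adjusted p = 0.036). A030001D16Rik, a clone name, also passed (fitted change 4.38, adjusted p = 0.036), but it was well above background on 0 of the 4 BL6 arrays with pioglitazone, so the size of its change is not measured. In BL6 it was -1.47 to -0.58 on the high-fat diet, -6.79 to -4.35 with pioglitazone and -6.47 to -3.8 on chow, whereas the BLKS means were -2.11, -1.99 and -2.01 on chow, high-fat diet and pioglitazone. The count of 2 rested on single mice. It was 0 without BL6 mouse 2 or BLKS mouse 3 on pioglitazone, or without BL6 mouse 1 or 2 or BLKS mouse 1, 3 or 4 on the high-fat diet. It was 6 without BL6 mouse 1 or 4 on pioglitazone or BLKS mouse 2 on the high-fat diet, 3 and 4 without BL6 mouse 3 and 4 on the high-fat diet, and 22 without BLKS mouse 4 on pioglitazone. Hspa1a, whose difference was far larger with pioglitazone than on the other diets, did not pass (adjusted p = 0.34 against chow and 0.23 against the high-fat diet). Npas4 differed by 4.46 with pioglitazone, 4.55 on chow and 2.57 on the high-fat diet, and that change did not pass either (1.88, SE 0.41, adjusted p = 0.13). The BL6 mice on chow and on the high-fat diet lay on a slide that held no BLKS array, so in these tests diet and slide cannot be told apart.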

How the data were processed

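RNA of whole islets was measured on 24 single-colour Agilent arrays, 4 mice in each of 6 groups taken from the sample titles. Per the file headers, Agilent Feature Extraction 10.7.3.1 made the deposited intensity of each spot, which is background-subtracted but carries no normalization between arrays. An alternative started from the deposited mean and local background intensity instead. Other deposited columns, per the file headers, are yes-or-no flags for spots well above background, outliers, saturated spots and controls. The values deposited as a separate matrix are a linear ratio, equal to processed intensity over the array's median. Of its value columns, 0 were left unmapped.

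Of 62976 spots 59305 were not controls, and spots of 1 probe were averaged to 55681 probes. The log2 intensity minus the array's 75th percentile was used, and 55 probes were left out for outlier flags. A probe was kept if well above background on at least 4 of 24 arrays (32750 probes), so a gene bright in 1 group alone was tested, and the brightest kept probe stood for a gene name. Among 4758 other probes of called genes, 3934 (82.7%) gave a difference of the same sign, and the rest did not. The array design's gene names were kept, and 48.93% of probes matched a RefSeq symbol. Strain differences and their changes with diet were tested with limma 3.58.1 (R 4.3.3, with package data.table at version 1.17.8) on 6 group means over all 24 arrays with Benjamini-Hochberg adjustment over 22968 genes, and the fit was checked on simulated data. The number of arrays limits the precision.

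The comparison, the gene lists and the naming rule were chosen with earlier results of these data known. The rule took the 14 highest and 14 lowest differences among called genes without overlap (clone and locus names left out), up to 4 called members of smallest p of each list with at least 3 called members and every called member of lists with fewer, the 5 smallest p of each direction in each test between diets, the called genes of the 3 windows of highest share, and 15 fixed genes (Rbp7, Fabp4, Cd36, Pparg, the pump Atp2a2, Mki67, Nnt, Slc2a2, Mafa, Pdx1 and the hormones Ppy, Sst, Gcg, Ins2 and Ins1). Some genes are not reported here. Other genes and the families by symbol were chosen after their values were seen. Alternatives covered normalization, background, filter, probe choice, value table, slide, mouse number, acinar and lymphocyte scores and single mice. The mouse numbers did not pair the samples: the correlations of same-numbered mice's deviations between the strains were -0.35, 0.02, -0.2 and 0.25.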

Additional observations from a re-analysis of the deposited data

Results flagged for a closer look

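Among 176 genes named in the text, 25 of 352 groups of 4 mice (7.1%) held a mouse far from the other three by Dixon's criterion. Chance gives about 1 in 20, and 6.43% of all genes' groups met it. BL6 mouse 3 accounted for 8 of them. It was high for the T-cell chemokine Ccl5 (4.73, next 0.57), the transcription factor Klf2 (3.05, next 1.2), the NF-kB inhibitor Tnfaip3 (1.55, next -0.42) and the antigen-presenting genes H2-Aa (4.96) and H2-K1 (7.3), and low for Klf3 (2.83), Neurod1 (1.97) and Krt18 (5.49). Its lymphocyte mean was 2.31, and the part of lymphocytes in these values was not tested. BL6 mouse 1 was high for Ghrl (3.11, next 1.3) and Hspa12b (0.21), and for Apol8 (-5.92), H2-Ea-ps (-5.77) and Mmp13 (-5.96), which were not well above background in BL6.

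BLKS mouse 1, the mouse with the highest lymphocyte and lowest acinar mean of its group, was high for Ms4a1 (1.3, next -6.59), Dusp2 (2.1, next -0.15) and Cd68 (1.1) and low for Epcam (2.41). BLKS mouse 3 was low for Hspa1a (3.48, next 4.74), Fosb (4.49), Egr4 (-0.98) and Bmpr1b (-6.69, not well above background) and high for Ghrl (0.32). BLKS mouse 2 was low for Cxcl10 (2.08) and Fabp4 (3.08), and BLKS mouse 4 for Neurod1 (2.78). The strain difference changed between the high-fat diet and the diet with pioglitazone by a fitted 4.38 for A030001D16Rik, which was not well above background in BL6 with pioglitazone, and by -1.19 for Lrtm2, the 2 genes that passed that test in limma (adjusted p = 0.036 for each).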

How the results depend on the processing

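The count of 10520 genes that differed by strain with pioglitazone ranged from 8598 (fit on these 8 arrays only) to 11304 (lymphocyte score as a covariate) over the alternatives, except 4319 with slide as a fixed block and additive strain and diet. That block takes 1 strain difference over all diets. Its strain contrast comes from the slides that hold both strains, where BL6 had pioglitazone and BLKS had chow. The diet difference in that contrast was taken from the slides that hold 1 strain each. Leaving out 1 mouse at a time gave 9464 to 10791. The authors' value table gave 9743 called genes, of which 61.8% were higher in BLKS against 50.2% in the scanner values, and the median of all genes was 0.065 against -0.043. Without the arrays of high lymphocyte score 43.1% were higher. Arrays whose score lay more than 1 unit above the median of all arrays were left out. With pioglitazone these were BL6 mice 2 and 3 and BLKS mouse 1, so fewer mice were compared. On chow they were BL6 mouse 3 and BLKS mice 2 and 4, and on the high-fat diet BL6 mouse 4 and BLKS mouse 3.

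The change of the strain difference from chow to pioglitazone was called for 0 genes, for 10 without the arrays of high lymphocyte score and for 0 to 1 without single mice. The change from the high-fat diet was called for 2 genes, for 0 without a filter or without the high-lymphocyte arrays, for 1 with the filter on all 24 arrays, in the value table or with the acinar covariate, for 10 with mouse number as a replicate block, and for 0 to 22 without single mice. The mouse number as a block gave 10726 genes for the strain difference and lost the call of 1 of 216 named genes; the numbers did not pair the samples.

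Of 216 named genes, slide as a fixed block took the call from 63 and turned 5: Cdkn2c (0.2), Olfr224 (0.39), Zbtb16 (0.4), Slc25a32 (0.26) and Orc4 (-0.08). The mean of a gene's probes turned Lepr (0.05) and Itgb1bp1 (-0.5). In each case the cause was not tested. With slide as a random block the consensus correlation was -0.012 and all 216 named genes were called as before. Most groups lay wholly on a single slide, so the group means take up most of any slide effect. This fit therefore cannot show whether slide matters. Depth is limited by signal over background: for genes dim in a whole strain only a bound of the fold can be had. Strain cannot be told apart from slide in these 8 arrays.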

Other observations

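Further families, grouped by symbol after the values were seen, are given beside the 23% of all genes that were higher and the 22.8% that were lower. Of 26 measured keratins, the filament proteins of epithelia, 12 were higher in BLKS (46.2%) and 2 lower (10 and 2 with slide as a block). Beside Krt8 and Krt19, Krt18, the partner of Krt8, differed by 1.99, and Krt23 by 5.29, the latter well above background on 1 of 4 BL6 arrays. Among the claudins counted above, Cldn23 differed by 3.58, the vessel claudin Cldn5 by 3.23 and Cldn4 by 2.09. The 34 measured serpins, mostly protease inhibitors, had 14 higher (41.2%) and 3 lower, but 5 and 2 with slide as a block.

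Potassium channels, which set the beta cell's membrane potential, were higher for 21 of 66 measured genes (31.8%) and lower for 9 (13.6%), with a median of 0.08, and with slide as a block for 9 and 3. Kcnmb1, a subunit of the large-conductance calcium-activated channel, differed by 3.33 (well above background on 1 of 4 BL6 arrays). Kcnk16, which encodes the islet channel TALK-1, was lower (-0.83), as were Kcnh6 (-1.62) and Kcnk6 (-1.68). The nuclear RNA Malat1 was 1.63, 0.84, 1.44 and 0.79 in BL6 and 4.53, 4.26, 4.13 and 4.32 in BLKS, with no overlap (difference 3.14, SE 0.24), against 1.68 on chow. The change between these diets was 1.46 and did not pass (adjusted p = 0.29).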
